A study of Mus musculus with 7 samples.

Results

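A set of 9 genes of the effector program of mast cells and basophils was examined for occupancy by HA-tagged GATA2 and by HA-tagged 9aa-Ins: Fcer1a, Ms4a2, Fcer1g, Il1rl1, Hdc, Cpa3, Mcpt8, Mitf and Far2. They are 9 of the 21938 protein-coding genes of the mouse annotation used (GENCODE M21 on mm10, mitochondrial genes left out). A peak was assigned to a gene when its summit lay inside the gene or within 100 kb of the gene start, whichever strand or neighbor it lay on, so that a peak could also be assigned to other genes. Under this rule the genes held 16 of the 6254 peaks of the GATA2 list and 1 of the 1079 peaks of the 9aa-Ins list.

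The cells were hi-77-/- cells, a line of mouse hematopoietic progenitors from fetal liver that was immortalized with Hoxb8 and lacks the -77 enhancer of Gata2. They were grown with β-estradiol, infected for 3 days with a retrovirus carrying GFP and either HA-GATA2 or HA-9aa-Ins, a GATA2 variant with an insertion between its zinc fingers, and sorted for GFP. Every group thus carried the -77 deletion and expressed its protein from a retrovirus, and endogenous GATA2 carries no HA tag. Binding was mapped with anti-HA CUT&Tag, in which an antibody-tethered transposase cuts and tags nearby DNA, in 2 libraries per construct that were split from 1 pool of cells. Both libraries of a construct were merged in each deposited peak list, so no value below has a replicate error and no test was made. The 3 libraries in which GATA2 itself was the antibody target were not analysed here. The files hold no expression values, so the cells could not be checked against their marker genes, and a peak does not say whether the gene was expressed.

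Mast cells and basophils store histamine and proteases in granules and release them when antigen crosslinks IgE on the high-affinity IgE receptor, FcεRI. FcεRI consists of an IgE-binding α chain (Fcer1a), a signal-amplifying β chain (Ms4a2) and a γ chain that is shared with other Fc receptors (Fcer1g). GATA2 is required for mast cell development, and it recognizes the motif WGATAR, which stands for AGATAA, for AGATAG, for TGATAA and for TGATAG on either strand.

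The sequences at the summits that carried the main results are given first. They are from GRCm38, the assembly of mm10, on the strand of the named gene, 5′ to 3′. Each window has 75 bp to either side of the summit, with WGATAR or its reverse complement in capitals, so a match farther out is not shown. The 5 windows are the strongest peak of the set (Cpa3, chr3:20244072-20244222, minus strand), the peak nearest to the start of its assigned member gene (Hdc, chr2:126618811-126618961, minus strand), the peaks with the most WGATAR matches within 100 bp of the summit (Ms4a2, chr19:11612389-11612539, minus strand, and Mitf, chr6:97887986-97888136, plus strand) and the second strongest peak, which held no match within 100 bp of its summit (Far2, chr6:148109245-148109395, plus strand).
Cpa3, 1966 bp upstream: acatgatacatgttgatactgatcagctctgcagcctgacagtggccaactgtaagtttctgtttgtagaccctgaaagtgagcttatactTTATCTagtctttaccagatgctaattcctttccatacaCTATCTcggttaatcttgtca
Hdc, 413 bp downstream: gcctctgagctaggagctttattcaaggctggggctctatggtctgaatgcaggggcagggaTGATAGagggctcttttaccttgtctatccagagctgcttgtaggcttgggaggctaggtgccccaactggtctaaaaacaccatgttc
Ms4a2, 11255 bp downstream: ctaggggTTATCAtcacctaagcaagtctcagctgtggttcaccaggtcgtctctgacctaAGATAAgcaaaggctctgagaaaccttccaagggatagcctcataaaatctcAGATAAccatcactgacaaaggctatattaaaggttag
Mitf, 81009 bp downstream: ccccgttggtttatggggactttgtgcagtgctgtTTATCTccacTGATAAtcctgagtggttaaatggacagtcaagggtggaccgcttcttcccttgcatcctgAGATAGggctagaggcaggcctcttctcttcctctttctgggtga
Far2, 62061 bp downstream: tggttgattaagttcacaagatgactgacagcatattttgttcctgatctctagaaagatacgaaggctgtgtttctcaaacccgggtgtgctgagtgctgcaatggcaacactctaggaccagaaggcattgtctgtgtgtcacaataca

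The matches at the remaining peaks with WGATAR within 100 bp of the summit are shown with 10 bp to either side and on the strand that reads WGATAR, as further examples of the sites behind the motif counts. Not every match counted is printed. They lie at chr2:126636100-126636125 (Hdc, minus strand), chr1:40501692-40501717 (Il1rl1, plus strand), chr19:11634505-11634530 (Ms4a2, minus strand), chr3:20214894-20214919 (Cpa3, plus strand), and chr1:171281038-171281063 (minus strand) and chr1:171281018-171281043 (plus strand) for the 2 matches nearest to the summit of the strongest peak assigned to Fcer1g.
Hdc, 16756 bp upstream: atactccccaAGATAAgaaccactga
Il1rl1, 72064 bp downstream: gtgaccatgtTGATAAtatcaggtat
Ms4a2, 10895 bp upstream: atggggtaagAGATAGtgagaactgg
Cpa3, 27217 bp downstream: gaaggtagacAGATAActggtgttcg
Fcer1g, 46697 bp upstream, nearest match: tgtgctggggAGATAGcgtgggcgtg
Fcer1g, 46697 bp upstream, next match: gtccgtgtgcAGATAAgggccacgcc

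GATA2 peaks were found at 7 of the 9 genes, and Fcer1a and Mcpt8 had none. By the same rule, 52.5% of the 21938 protein-coding genes had one. The members' share, 77.8%, had a Wilson 95% confidence interval of 45.3 to 93.7, which covers counting error only and includes the share of all genes. Hdc and Cpa3 had 4 GATA2 peaks each, Fcer1g 3, Ms4a2 2, and Il1rl1, Mitf and Far2 1 each. With 4 peaks, Hdc and Cpa3 were among the 11.6% of all genes with 4 or more. A single gene, Mcpt8, had a 9aa-Ins peak, where 18.6% of all genes had one. None of the 16 GATA2 peaks overlapped a 9aa-Ins peak (Wilson 95% CI 0 to 19.4%), beside 15.3% of all GATA2 peaks, a share inside this interval.

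**Figure D1:**
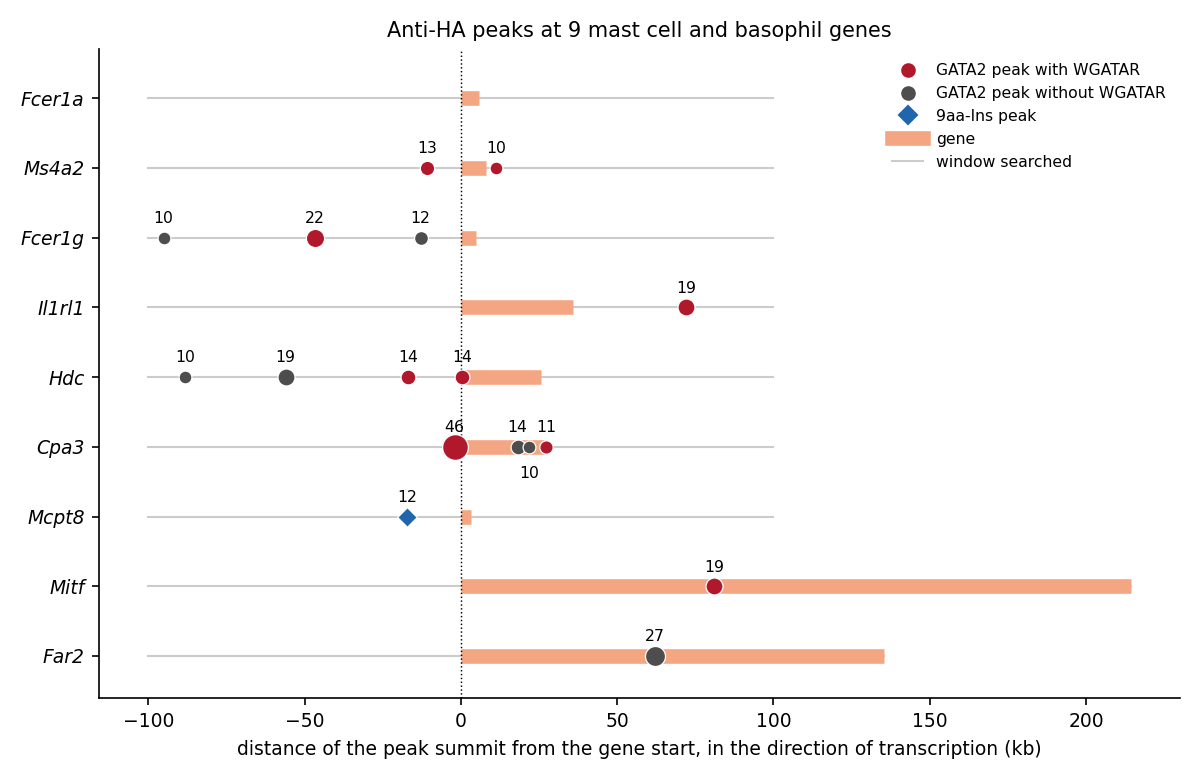
Peaks by the distance of the summit from the gene start in kb, with positive values in the direction of transcription, 1 row per gene. Circles are GATA2 peaks (red with and gray without WGATAR within 100 bp of the summit), the diamond is the 9aa-Ins peak, and the size of a symbol and the number beside it give the pileup in reads. Cpa3 holds the largest circle, of 46 reads, and Fcer1a has no symbol.

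Peak height is given as the fold enrichment of the authors' peak caller and as the pileup, that is, how many reads covered the summit, which was recovered from it. Over all 6254 GATA2 peaks the median pileup was 15 reads (quartiles 12 and 20), and no peak had fewer than 9 reads. Both lists had the same lowest pileup, and their backgrounds were close (0.464 reads with GATA2, 0.455 with 9aa-Ins). The pileups of the 16 member peaks ran from 10 to 46 reads with a median of 14 reads, and their fold enrichment ran from 7.51 to 32.1 with a median of 10.2. The median over the list was 10.9-fold. Of the 16 peaks, 6 stood above the list median in pileup and 10 at or below it, beside 2850 and 3404 of all 6254 GATA2 peaks. No difference in height from the list is read from these counts.

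**Figure D2:**
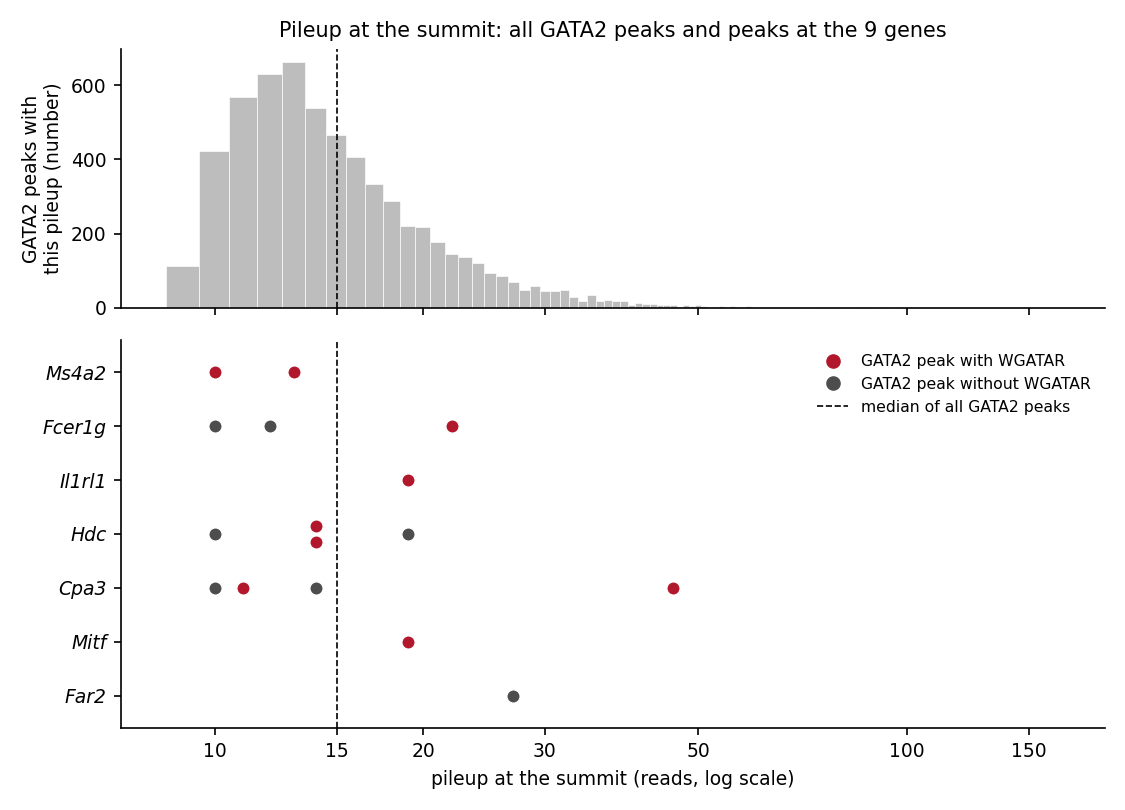
Pileup at the summit in reads, on a log axis, for all GATA2 peaks (gray bars, number of peaks at each pileup) and for the peaks assigned to each gene (points, red with and gray without WGATAR within 100 bp of the summit). The dashed line is the list median of 15 reads, and 6 of the 16 points lie to its right, with Cpa3 the farthest at 46 reads.

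The IgE receptor subunits differed in what lay around them. Around Fcer1a, the IgE-binding chain, no peak of either list was found, and the nearest GATA2 peak lay 700 kb downstream of its start, at chr1:172526378-172527028 near Cfap45. That distant peak had 30 reads and a fold enrichment of 21.2. The Fcer1a window was not short of motifs, with 652 WGATAR matches in 200 kb, the highest density of the 9 genes at 3.26 per kb.

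Ms4a2, the receptor's β chain, had a GATA2 peak on each side of the gene, both weak. The upstream summit was 10.9 kb from the gene start (chr19:11634522-11634710), with 13 reads and 9.56-fold enrichment. The downstream summit was 11.3 kb from the start and 3.06 kb beyond the gene end (chr19:11612273-11612519), with 10 reads and 7.51-fold enrichment. Neither summit had Ms4a2 as its nearest gene start. The upstream summit was 6.24 kb from the start of Ms4a3 and the downstream summit 7.62 kb from the start of Ms4a6d, which are neighbors of the same membrane protein family.

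These peaks also differed in motif content. Within 100 bp of the summit, the downstream peak had 4 WGATAR matches, 3 of them AGATAA, and the nearest was centered 11.5 bp from the summit. The upstream peak had 1 match, AGATAG, at 96.5 bp. Repeat-masked sequence made up 67.2% of the upstream window and none of the downstream window, and whether repeats affected the mapping of reads there was not tested.

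Fcer1g, the shared γ chain, had 3 GATA2 peaks, all upstream and nearer to the starts of other genes. A promoter was taken here as the 2 kb before and the 100 bp after a transcript start. The nearest was 12.9 kb from the Fcer1g start (chr1:171247041-171247453; 12 reads, 8.88-fold). By gene records, whose starts are those of the outermost transcripts, the nearest start was that of Adamts4, 3.19 kb away. Promoters were placed at the starts of all protein-coding transcripts, and by that rule this summit was counted as a promoter peak. The strongest was 46.7 kb away (chr1:171280801-171281627; 22 reads, 15.7-fold) and 124 bp from the start of Ppox, an enzyme of heme synthesis. The third was 95.1 kb away (chr1:171329336-171329572; 10 reads, 7.51-fold) and 297 bp from the start of Dedd. The Fcer1g window was the most crowded of the 9, with 13 other gene starts, and had the lowest density of WGATAR at 1.85 per kb. The peak at Ppox had 3 WGATAR matches, the nearest centered 11.5 bp from the summit, whereas the other 2 peaks had none within 100 bp.

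Il1rl1 encodes ST2, the receptor for the alarmin IL-33 on mast cells and basophils. Its 1 GATA2 peak lay 72.1 kb downstream of the start and 36.2 kb beyond the gene end (chr1:40501114-40501867), with 19 reads and 13.7-fold enrichment. The summit was 13.7 kb from the start of Il18rap, which encodes a subunit of the IL-18 receptor and lies downstream of Il1rl1 in the cluster of interleukin-1 receptor genes. A single match of the form TGATAA was centered 70.5 bp from the summit. The 2 RefSeq promoters of Il1rl1, each from 250 bp upstream to 50 bp downstream of a transcript start, held 5 and 1 WGATAR matches, and no peak of either list overlapped them.

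Among the genes of stored mediators, Hdc encodes histidine decarboxylase, which makes histamine. Its 4 GATA2 peaks spread from just inside the gene to 88.2 kb upstream. The nearest summit was 413 bp downstream of the gene start (chr2:126618763-126618955), in intron 1 of the transcript Hdc-205 and 208 bp upstream of the start of Hdc-201. It had 14 reads (exact Poisson 95% interval 7.65 to 23.5, for counting error only) and 10.2-fold enrichment, and 1 TGATAG match centered 10.5 bp from the summit. This peak also overlapped the RefSeq promoter of Hdc, from 250 bp upstream to 50 bp downstream of a transcript start.

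The other Hdc peaks were all upstream. The summit at 16.8 kb (chr2:126635900-126636125) had the same height, with 14 reads, and its AGATAA match was centered 57.5 bp from the summit. At 56.0 kb (chr2:126674847-126675416) stood the strongest peak of this gene, with 19 reads and 13.7-fold enrichment. The farthest, at 88.2 kb (chr2:126707355-126707577), was among the weakest with 10 reads and 7.51-fold enrichment. Both of these far peaks lay near other gene starts, 1.02 kb from Gabpb1 and 185 bp from Usp8, and had no WGATAR within 100 bp. In Hdc, therefore, the 2 peaks with Hdc as the nearest gene had the motif and the 2 peaks near other genes did not.

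Cpa3, the mast cell carboxypeptidase that is stored in granules bound to proteoglycan, held the strongest GATA2 peak of the set. Its summit was 1966 bp upstream of the gene start (chr3:20243933-20244251), with 46 reads (exact Poisson 95% interval 33.7 to 61.4) and 32.1-fold enrichment. By the bounds of 2 kb before and 100 bp after a transcript start, it was counted as a promoter peak. It stood at rank 88 of the 6254 GATA2 peaks, a place shared by 8 peaks of equal height. The next peak of the set had 27 reads (interval 17.8 to 39.3), so that even these intervals overlapped. The window printed above shows its 2 WGATAR matches, AGATAA at 18.5 bp and AGATAG at 57.5 bp from the summit, 39 bp apart and both on the strand opposite to the gene.

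The other Cpa3 peaks were far lower. In the gene, a summit 18.2 kb from the start in intron 7 of Cpa3-201 had 14 reads, and a summit 21.8 kb from the start in intron 9 had 10 reads. A summit 27.2 kb from the start, 656 bp beyond the gene end, had 11 reads. Within 100 bp of the summit, neither intronic peak had WGATAR, and the peak past the gene end had 1 match, at 57.5 bp, so that 1 of these 3 peaks held the motif, beside 30.3% of all GATA2 peaks. By the bounds of the peaks instead, the intron 9 peak held 1 match and the peak past the gene end held 0, as its match lay just outside. Its window was 91.5% repeat-masked, the highest value of the set. The windows in introns 7 and 9 were 37.8% and 24.9% repeat-masked. Whether similar sequence elsewhere in the genome affected the mapping of reads at these peaks was not tested. Cpa3 was the nearest gene start to all 4 of its peaks, which was true of no other member with more than 1 peak.

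Mcpt8, a serine protease of basophil granules, had no GATA2 peak, like Fcer1a, and the nearest lay 162 kb downstream (chr14:55922697-55922932; 12 reads, 8.88-fold), 21.8 kb from the start of the mast cell chymase gene Cma1. It had instead the only 9aa-Ins peak of the set, 17.3 kb upstream (chr14:56102342-56102643), with 12 reads (exact Poisson 95% interval 6.20 to 21.0) and 8.93-fold enrichment. The height of this peak was close to the median of the 9aa-Ins list, 13 reads. The summit was 21 bp from the start of Ctsg, which encodes cathepsin G, a protease best known from neutrophil granules. No WGATAR lay within 100 bp of it, and the nearest GATA2 peak was 179 kb away.

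Mitf encodes the transcription factor that, with GATA2, is required for mast cell differentiation. Its 1 GATA2 peak lay inside the gene, 81.0 kb from the start (chr6:97887893-97888151), in intron 1 of Mitf-202 and 41.7 kb upstream of the nearest transcript start, that of Mitf-203. It had 19 reads and 13.7-fold enrichment. The summit was surrounded within 100 bp by 4 WGATAR matches, 1 of each form of the motif, and an AGATAA and a TGATAA on opposite strands started 10 bp apart, the nearer of them centered 27.5 bp from the summit. The windows of Mitf and Far2 each contained no other protein-coding gene start.

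Far2 encodes a fatty acyl-CoA reductase that makes fatty alcohols. Its 1 GATA2 peak, 62.1 kb from the start in intron 1 of Far2-201 (chr6:148109081-148109481), was the second strongest of the set, with 27 reads and 19.1-fold enrichment. It had no WGATAR within 100 bp of its summit, although 2 matches lay farther out within the bounds of the peak. No match near the summit says only that these letters are not in that window. Together with Hdc, Cpa3 and Mitf, Far2 was 1 of 4 members with a GATA2 summit inside the gene, as 13.9% of all genes had. These shares were not matched for gene length, and Mitf (214 kb) and Far2 (135.5 kb) were the longest members.

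The 16 peaks were next compared by motif. Within 100 bp of the summit, 9 of 16 peaks had WGATAR (56.3%, Wilson 95% CI 33.2 to 76.9), beside 30.3% of all GATA2 peaks, a value just below this interval, which covers counting error only. Within 50 bp of the summit, 5 of 16 peaks had it (31.3%, 95% CI 14.2 to 55.6), beside 18.3% of all GATA2 peaks, a value inside the interval. Equally long windows placed 2 kb before and after the member summits held the motif in 12 of 32 cases (37.5%, 95% CI 22.9 to 54.7), and the same windows around all GATA2 peaks in 29.9% of 12508 cases. The interval of the member peaks includes the share in these flanking windows, so the difference was not detectable at this number of peaks. The share differed by position over the list. Outside promoters, 6 of 10 member peaks had WGATAR (95% CI 31.3 to 83.2%), beside 47.0% of all GATA2 peaks. Within promoters, 3 of 6 member peaks had it (95% CI 18.8 to 81.2%), beside 13.9% of all, a value below this interval. At least 2 matches lay in 4 of the 16 peaks, those printed above for Cpa3, Ms4a2 and Mitf and the peak at Ppox. This share had a 95% CI of 10.2 to 49.5%, beside 9.55% of all GATA2 peaks, a value just below it. These shares rest on few peaks, and their intervals cover counting error only.

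**Figure D3:**
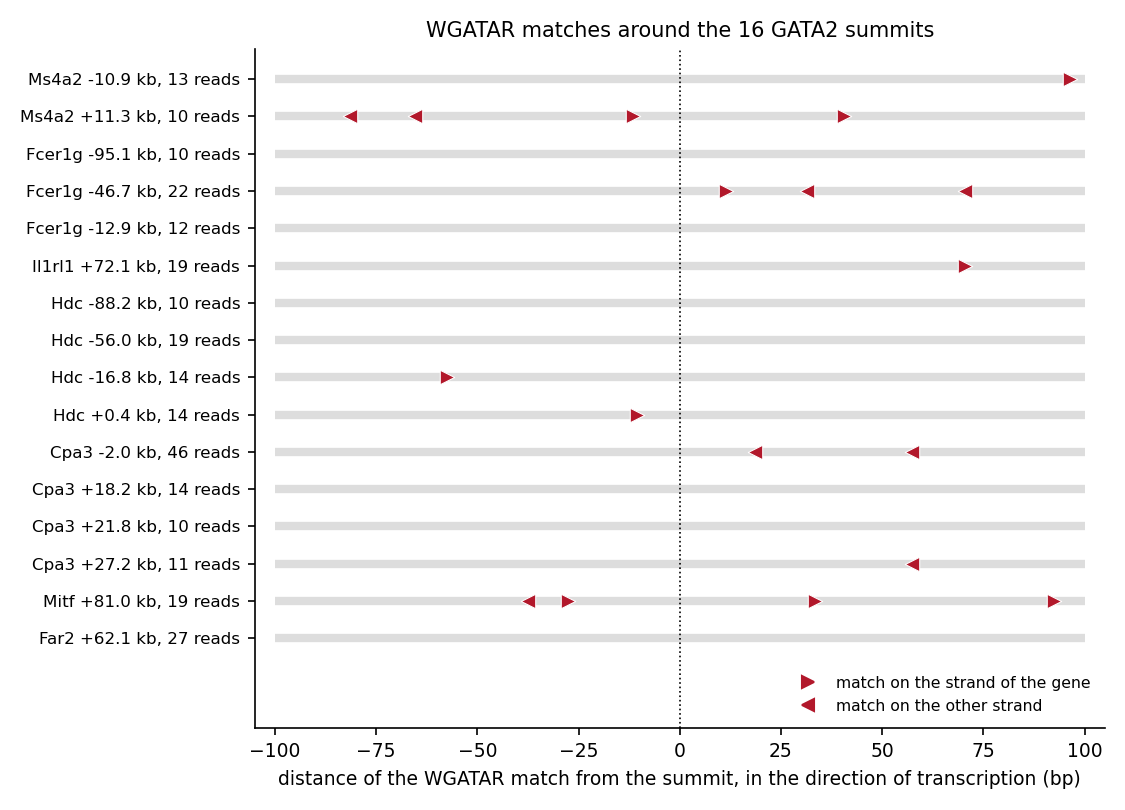
Position of each WGATAR match relative to the summit in bp, in the direction of transcription of the named gene, for the 16 GATA2 peaks (1 row each, labelled by distance from the gene start and pileup). Right-pointing triangles are matches on the strand of the gene and left-pointing triangles matches on the other strand. Of the 18 matches, 9 lie within 50 bp of the summit, and 7 rows are empty.

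The 16 peaks held 18 WGATAR matches in all, 8 AGATAA, 4 AGATAG, 3 TGATAA and 3 TGATAG. Over all GATA2 peaks the same order began with AGATAA, at 40.8% of 2649 matches. Of these matches, 4 were centered within 20 bp of a summit, in 4 peaks assigned to Hdc, Ms4a2, Cpa3 and Fcer1g. Of the 18, 10 were on the strand of the gene. The motif alone was abundant: the windows of the 9 genes, 1950 kb together, contained 5147 WGATAR matches, and 0.350% of them lay within 100 bp of a GATA2 summit. Peaks with the motif had a median of 14 reads (10 to 46) and those without it 12 reads (10 to 27), and these ranges overlapped.

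For other motifs no difference from the list was detectable. An E-box, CANNTG, which is read by the TAL1 and MITF families of basic helix-loop-helix factors, lay within 100 bp of 8 of 16 summits (50%, 95% CI 28.0 to 72.0), beside 53.9% of all GATA2 peaks. An E-box within 20 bp of WGATAR was found at 2 peaks, the strongest Cpa3 peak and the downstream Ms4a2 peak, beside 8.07% of all. The form CATGTG, known as the M-box of MITF, occurred once, at the strongest Cpa3 peak, beside 8.27% of all, and CACGTG not at all, beside 5.47%. The AP-1 motif TGANTCA lay in 1 peak (6.33% of all), the RUNX motif TGTGGT in 3 (16.2% of all) and the ETS core AGGAAG in 2 (29.5% of all). All were searched on both strands, CATGTG and CACGTG are forms of CANNTG and were counted under both, and all the member shares had intervals that included the share of the list.

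The next question was whether these sites were also occupied in cells with 9aa-Ins. None of the 16 member peaks overlapped a 9aa-Ins peak by even 1 bp, beside 15.3% of all GATA2 peaks. A count of 0 of 16 allows a share of up to 18.8%, and the Wilson interval reaches 19.4%, so a difference from the list was not detectable at this number of peaks. Overlap in the list rose with height: 5.49% of GATA2 peaks at or below the median pileup and 27.1% of those above it overlapped a 9aa-Ins peak. It was 22.0% in promoters, 8.49% outside them and 3.50% among peaks outside promoters with WGATAR. The nearest 9aa-Ins peak lay 173 to 7475 kb from the member peaks, with a median of 701 kb.

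The height of the member peaks bears on that count. All 16 pileups reached the lowest pileup of the 9aa-Ins list, 9 reads, which was also the lowest of the GATA2 list. For 6 of the 16 the lower Poisson limit was 9 reads or more, namely the peaks of at least 19 reads at Fcer1g, Il1rl1, Hdc, Cpa3, Mitf and Far2. For the other 10, a site bound equally with both constructs could have fallen below the limit by counting error. Occupancy that did not reach the limit cannot be told apart from none in a peak list.

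Many of these peaks lay nearer to another gene. By gene records, the member was the nearest gene start for 8 of the 16 peaks, in Hdc, Cpa3, Mitf and Far2. The other 8 were nearest to Gabpb1, Usp8, Il18rap, Ms4a6d, Ms4a3, Adamts4, Ppox and Dedd. WGATAR was present in 5 of the 8 peaks nearest to the member and in 4 of the 8 nearest to another gene. GC content over the summit windows was 33.8 to 55.7% (median 47.3%) in the former and 40.8 to 80.6% (median 57.7%) in the latter. The list median was 58.2%.

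The limit of 100 kb fell between peaks of similar height. Just inside it were the Dedd peak of Fcer1g at 95.1 kb and the Usp8 peak of Hdc at 88.2 kb, with 10 reads each. Just outside it were a peak 128 kb downstream of the Hdc start, with 10 reads, and a peak 132 kb downstream of the Fcer1g start, with 13 reads.

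Other genes of the same cells were examined by the same rule in 6 lists, 54 genes in all: proteases, mediator synthesis and granule storage, IgE receptor signaling, receptors for growth factors and cytokines, IL-33 signaling, and cytokines with eosinophil granule proteins. A GATA2 peak was found at 43 of the 54 (79.6%, 95% CI 67.1 to 88.2), beside 52.5% of all protein-coding genes. Neighboring genes shared peaks, so the genes are not independent and these intervals are too narrow. The 43 genes shared 99 peaks, of which 41.4% had WGATAR, beside 30.3% of all GATA2 peaks, and 8.08% overlapped a 9aa-Ins peak, beside 15.3% of all. Lists of other lineages gave like shares, with a GATA2 peak at 8 of 9 genes of neutrophil primary granules, 10 of 13 erythroid and megakaryocyte genes and 8 of 11 B lymphoid genes. A GATA2 peak by this rule thus did not set the mast cell and basophil genes apart from those lists.

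Within the lists, genes of mediator synthesis and storage had GATA2 peaks at 9 of 10. The strongest, with 37 reads, lay 45 bp from the start of Ndst2, which sulfates the heparin of mast cell granules. IgE receptor signaling had peaks at 11 of 12 genes, the strongest at Vav1, a guanine nucleotide exchange factor, with 29 reads. Among the receptors 8 of 11 had a peak, and the strongest, 35 reads, was shared by Csf2rb and Csf2rb2, β chains of cytokine receptors, and was nearest to Ncf4. All 6 genes of cytokines and eosinophil granules had a GATA2 peak, and the strongest, 17 reads with 2 WGATAR, lay near Il13 and within reach of Il4. IL-33 signaling had peaks at 3 of 6, the strongest 261 bp from Irak4 with 16 reads, and the partner chain of ST2, Il1rap, had none in either list.

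The 9aa-Ins list reached 17 of the 54 genes (31.5%, 95% CI 20.7 to 44.7), through 18 peaks, beside 18.6% of all protein-coding genes. It also reached 4 of 9 genes of neutrophil primary granules, 4 of 13 erythroid and megakaryocyte genes and 5 of 11 B lymphoid genes. Of the 17 genes, 8 were proteases, and these 8 rested on only 2 peaks. One was the Ctsg peak described for Mcpt8, within 100 kb of its neighbors Mcpt1, Mcpt2, Mcpt4 and Mcpt9. Epx, eosinophil peroxidase, had 8 peaks of up to 55 reads, the strongest of them nearest to its neighbor Mpo, the myeloperoxidase of neutrophils. The rest were single peaks at Alox5ap, Ltc4s, Srgn, Lat2, Lcp2, Vav1, Inpp5d and Myd88, with 10 to 15 reads, and none of the 11 receptor genes had one.

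**Figure D4:**
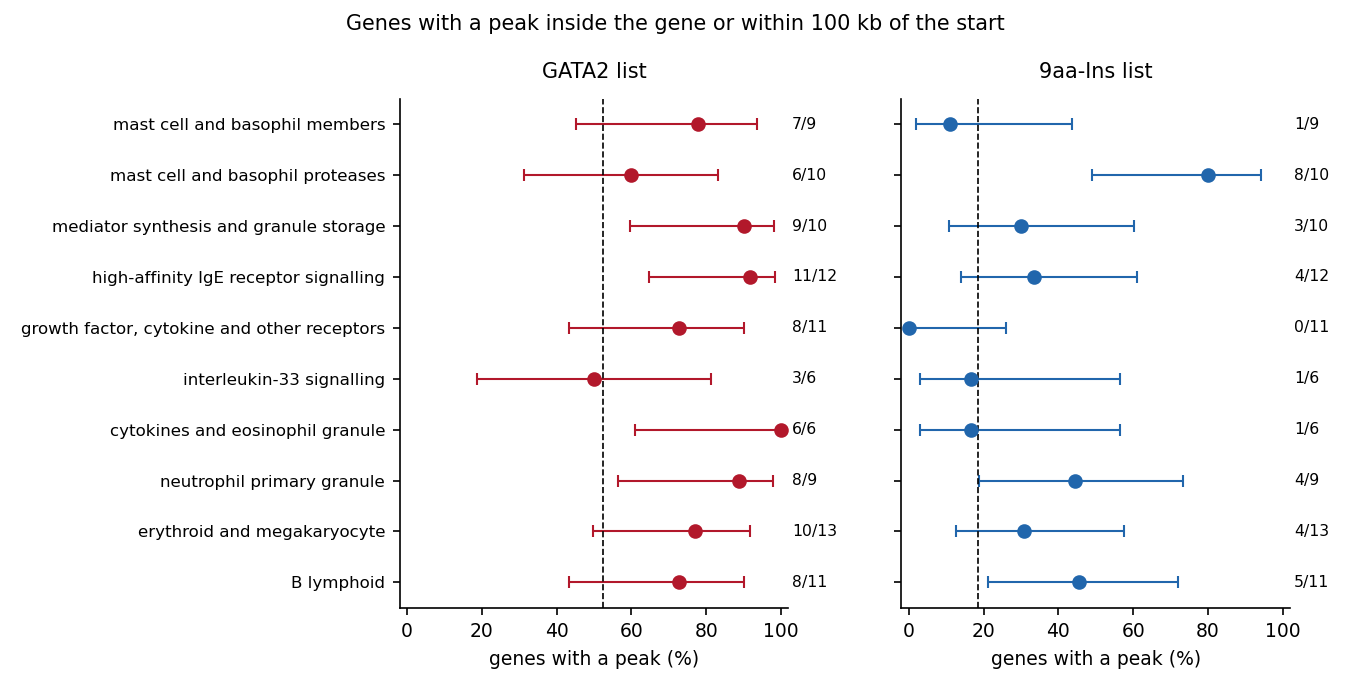
Share of genes in percent with a peak inside the gene or within 100 kb of the start, in the GATA2 list (left, red) and the 9aa-Ins list (right, blue), for the 9 members, 6 related lists and 3 lists of other lineages. Bars are Wilson 95% intervals, which ignore peaks shared by neighboring genes, the numbers give genes with a peak out of genes in the list, and the dashed lines are the shares of all protein-coding genes, 52.5% and 18.6%. The members stand at 7 of 9 and 1 of 9, and the protease list at 8 of 10 on the right rests on 2 peaks.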

How the data were processed

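The labels describe 7 CUT&Tag libraries. Per the labels and the methods of the study, the authors aligned reads to mm10 with Bowtie2, called peaks with MACS3 and also used deepTools (versions not given in the sources used here). The deposited files were 2 peak lists at a q-value of 1e-06, 1 per construct, each merging both anti-HA replicates by its name. All fold enrichments of a list shared 1 background, as from 1 call on pooled reads, whereas the methods of the study describe HOMER merging of peaks called per replicate. Which of these produced the pileups and q-values could not be settled. Per peak, the authors deposited the fold enrichment, a ratio of pileup plus 1 to background plus 1, the −log10 q-value and the summit offset. The −log10 p-value was not used. Library depth is not in the lists, and the background stood in for it.

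Pileups were recovered from the steps between fold enrichments (100% whole, with a relative departure of at most 4.21e-06). The analysis (Python 3.11.15, pandas 2.3.3, NumPy 2.4.6, SciPy 1.17.1, pysam 0.24.0) was tested on simulated data. All positions are 1-based on mm10, genes are from GENCODE M21, and sequences are from RefSeq's GRCm38 files. Promoter sequences matched 9 of 9 members. Motifs were sought in both orientations up to 100 bp from the summit, and a peak was shared when it overlapped the other list by at least 1 bp. Intervals (95%, Wilson or exact Poisson) cover counting error only, as PCR reads without molecular identifiers are not independent molecules. A count of 0 was taken to allow up to 3 counts. No test was run, since neither list holds replicates.

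All 9 members are named, each with its nearest and strongest peaks, and a related gene when it holds the strongest peak of its list or has a 9aa-Ins peak. One result under this rule is not reported here. The members and all gene lists were chosen with earlier results of these data known. Every column used belongs to these lists, and 0 columns belong to other samples. Alternatives were stricter q-values, other distance limits, other motif windows and other overlap rules, and a shortened GATA2 list.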

Additional observations from a re-analysis of the deposited data

How the results depend on the processing

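Of 47 alternative values, 37 stayed within 1.5 times the reported count or within the interval of the reported share or height, and 10 moved further. With a limit of 10 kb from the gene start, gene bodies still counted, the GATA2 peaks fell to 6 and the genes with one to 4, and the 9aa-Ins peaks and genes with one to 0 and 0. When only peaks with the member as the nearest gene start were kept, the GATA2 peaks numbered 8 at 4 genes, and the 9aa-Ins peaks 0 at 0 genes. In a GATA2 list cut to its best 1079 peaks by q-value, 3 of the 9 genes had a peak. The share of member peaks with WGATAR was 31.3% within 50 bp of the summit, where the search covers less sequence, beside 18.3% of all GATA2 peaks, which the interval of the member share then included. Searched over the whole peak instead, WGATAR was again in 9 of 16 peaks, but not the same 9: the Far2 peak and the intron 9 peak of Cpa3 joined, and the upstream Ms4a2 peak and the Cpa3 peak past the gene end dropped out. Stricter q-values of 1e-08 and 1e-10 left 16 and 11 GATA2 peaks at 7 genes, and the overlap with 9aa-Ins was 0% under every alternative run for it. No paired analysis was possible because the peak lists analysed here hold both replicates of a construct together, and a single replicate could not be left out of them. The number of peaks and their height, 10 reads for the weakest, limit every share.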

Other observations

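Between 100 and 200 kb from the 9 gene starts lay a further 11 GATA2 peaks and 0 9aa-Ins peaks. Their pileups ran from 10 to 24 reads, 4 of them (36.4%, Wilson 95% CI 15.2 to 64.6) had WGATAR within 100 bp of the summit, beside 30.3% of all GATA2 peaks, and 0 (95% CI 0 to 25.9%) overlapped a 9aa-Ins peak, beside 15.3% of all. Both intervals, which cover counting error only, include the shares of the whole list. The strongest stood 177 kb upstream of the Ms4a2 start (chr19:11800601-11800919; 24 reads, 17.1-fold), with a second 184 kb upstream (chr19:11807427-11807729; 19 reads). Each had 1 WGATAR, and both were nearest to Stx3, a syntaxin of the membrane fusion machinery. Far2 had 3 such peaks, all nearest to Ergic2, Fcer1g 3, Hdc 2 and Mcpt8 1.

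GATA2 peaks lay at 8.21 per Mb in the windows of the 9 genes and at 2.29 per Mb over the genome. Peaks in the list gather near genes, and the windows were placed on genes, so these values are given side by side only. The mean number of GATA2 peaks per gene under the same rule was 1.78 for the members and 1.38 for all protein-coding genes. Of the 12 RefSeq promoters of the members, 8 held WGATAR, in 6 genes, beside 29.8% of all 32851 promoters of the same 300 bp length. Several of the member promoters belong to Il1rl1 and Mitf, so they are not independent, and the members were chosen with earlier results known. The GATA2 peak at Hdc was the only peak of either list that overlapped these 300 bp promoters of the members. No share of all 32851 promoters with a peak is given beside it, so the count is not read as few or many. By the wider bounds of 2 kb before and 100 bp after a transcript start, the strongest Cpa3 peak was also counted as a promoter peak.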
